A study of Mus musculus with 3 samples.

Results

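The 9 genes described here were chosen as markers of microglia at rest: P2ry12, P2ry13, Cx3cr1, Csf1r, Tmem119, Siglech, Fcrls, Selplg and Olfml3. They were taken by symbol, as 9 of the 32285 gene rows of 3 single-nucleus RNA libraries, and all 9 were measured. Microglia are the resident macrophages of the brain. At rest they survey the tissue with receptors for nucleotides, the chemokine fractalkine and colony-stimulating factors, and mouse microglia around amyloid plaques are known to lower many of these genes as they take up the disease-associated state. Of the 9 products, the receptor kinase of Csf1r is the one with an enzyme activity. The others are receptors, surface glycoproteins and a secreted glycoprotein. In the nuclei taken as microglial below, all 9 were detected in every library, and in neuron-gated nuclei their levels were at most 12.7% of the microglial ones.

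The mice were 6 months old and carried 5xFAD, transgenes under which amyloid plaques form, and cortical nuclei were taken, with 1 male and 1 female mouse pooled in each library and 1 library per group. TRAP mice were 5xFAD;Cx3cr1CreErt2/+;Eef1a1LSL.eGFPL10a/+, so their microglia carried a GFP-tagged ribosomal protein. iPKR mice were 5xFAD; Cx3cr1CreErt2/+;Eef1a1LSL.NS3.eGFPL10a.iPKR/+ and carried in addition an inducible form of the stress kinase PKR. Eif2A mice were Eif2s1A/A;Tg(Eif2s1), with altered copies of the gene for the translation factor that PKR phosphorylates, and like TRAP mice had 5xFAD, Cx3cr1CreErt2/+ and Eef1a1LSL.eGFPL10a/+. All of them received tamoxifen, 6 doses of 100 mg/kg at 4 to 6 weeks of age and 48 hours or more apart. From 5 months of age, VEGF (1 µg/kg) was followed after 30 minutes by the drug ASV (5 mg/kg), biweekly for 4 weeks, in TRAP and iPKR mice. Eif2A mice had tamoxifen alone, so genotype and treatment differ together between that library and the others and cannot be told apart. Every mouse carried 5xFAD and a Cre insertion in an allele of Cx3cr1, which is itself one of the 9 genes, and the Cre that switched on the sorting label runs from the Cx3cr1 locus. Nuclei were sorted for high GFP and the lowest DyeCycle Ruby signal.

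The libraries held 11958 (TRAP), 6554 (iPKR) and 9438 (Eif2A) nuclei, with 26788174, 30502700 and 21782925 unique molecular identifiers (UMIs), the counts of single RNA molecules. Levels are given as CPM, a gene's UMIs per 1000000 UMIs of the same nuclei. A nucleus was taken as microglial when Inpp5d, Dock8, Runx1, Ptprc and Apbb1ip together made up 0.5% or more of its UMIs and the neuronal genes Meg3, Snap25, Syt1, Nrg3 and Kcnip4 less than 0.5%. This gate kept 7605 TRAP nuclei (63.6%), 1059 iPKR nuclei (16.2%) and 6596 Eif2A nuclei (69.9%), at a median of 1309, 1145 and 1788 UMIs. The iPKR library stands apart, since neuron-gated nuclei outnumbered microglia-gated ones in it (4349 against 1059, compared with 1768 and 464 neuron-gated nuclei in TRAP and Eif2A). Gated nuclei were split by the summed share of Cst7, Lpl, Ank, Tmem163 and Myo1e, genes of the disease-associated state: state-low nuclei had 0.1% or less and state-high nuclei 0.3% or more. State-low nuclei numbered 4067 (TRAP), 760 (iPKR) and 3136 (Eif2A), and state-high nuclei 1823, 137 and 1754. None of the 9 genes entered the gate or the split. The libraries shared 14 to 32 barcodes in pairs.

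The genes lie on 5 chromosomes (mm10, GENCODE vM21). P2ry12 (ENSMUSG00000036353, chr3:59216272-59262871) and P2ry13 (ENSMUSG00000036362, chr3:59207892-59210882) are neighbours on the minus strand, 5389 bases apart, and both lie inside Med12l (chr3:59005825-59318682), which runs on the plus strand. Tmem119 (ENSMUSG00000054675, chr5:113793729-113800516) and Selplg (ENSMUSG00000048163, chr5:113818536-113832644) are neighbours too, 18019 bases apart on the minus strand. Fcrls (ENSMUSG00000015852, chr3:87250758-87263738), Olfml3 (ENSMUSG00000027848, chr3:103722222-103738001) and Cx3cr1 (ENSMUSG00000052336, chr9:119901616-120069879) are on the minus strand, and Siglech (ENSMUSG00000051504, chr7:55768178-55778925) is on the plus strand, as is Csf1r on another chromosome. The annotated span of Cx3cr1 covers several other genes, among them Wdr48, Gorasp1, Ttc21a, Csrnp1 and Xirp1. Whether counting used the strand is not given in the sources used here, so UMIs of overlapping genes may not be fully separated.

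RefSeq promoter windows (GRCm38.p6, the assembly of mm10) matched 6 of the 9 genes. The 250 bases before the start are shown for P2ry12, P2ry13 and Olfml3, since these 3 genes fell by nearly the same factor in state-high nuclei and their windows lie outside the annotated gene itself (those of P2ry12 and P2ry13 are within Med12l). Capitals mark GAGGAA, the core of the PU-box bound by the myeloid factor PU.1, searched on both strands. The windows are chr3:59262986-59263235, chr3:59210883-59211132 and chr3:103738002-103738251, each read 5′ to 3′ on the minus strand.
P2ry12: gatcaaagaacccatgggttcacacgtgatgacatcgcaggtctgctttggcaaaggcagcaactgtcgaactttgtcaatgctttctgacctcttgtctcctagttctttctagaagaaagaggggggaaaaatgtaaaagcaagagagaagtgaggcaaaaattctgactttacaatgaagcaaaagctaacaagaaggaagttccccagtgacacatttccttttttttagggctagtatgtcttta
P2ry13: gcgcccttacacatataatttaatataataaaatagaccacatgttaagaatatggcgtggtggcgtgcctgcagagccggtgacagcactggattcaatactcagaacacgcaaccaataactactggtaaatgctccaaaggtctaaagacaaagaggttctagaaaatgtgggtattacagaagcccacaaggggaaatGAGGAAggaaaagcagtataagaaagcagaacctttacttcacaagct
Olfml3: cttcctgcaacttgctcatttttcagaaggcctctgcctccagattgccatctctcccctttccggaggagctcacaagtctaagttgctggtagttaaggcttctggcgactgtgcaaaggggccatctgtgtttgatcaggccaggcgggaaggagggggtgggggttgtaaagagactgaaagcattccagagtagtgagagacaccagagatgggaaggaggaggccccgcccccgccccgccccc
P2ry13 held 1 match and P2ry12 and Olfml3 none. Among the 6 windows, 2 held a match (P2ry13 and Fcrls), against 23.3% of all 32851 windows of this length. On both strands, the MEF2 letters (CTA, any 4 bases, TAG) were found in 1 of the 6 (Cx3cr1; 3.2% of all windows), the SMAD letters CAGAC in 4 (42.2%), the MAF letters TGCTGA in 1 (Fcrls; 16.1%) and the IRF letters (GAAA, any 2 bases, GAAA) in 0 (2.98%). No matches of different motifs overlapped in these windows. A match describes the letters in the window and no more.

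With state thresholds of 0.1% and 0.3%, all 9 genes had lower values in state-high than in state-low nuclei in each of the 3 libraries. The difference ran from a small one in Fcrls to one of over 3-fold in Tmem119. Summed over the 9, the level went from 8184 to 4703 CPM in TRAP, from 9393 to 4711 in iPKR and from 8267 to 4683 in Eif2A. That is 1.74-fold lower in TRAP (95% counting interval 1.71 to 1.78), 1.99-fold lower in iPKR (1.85 to 2.15) and 1.77-fold lower in Eif2A (1.73 to 1.80). In state-low nuclei the sum was higher in iPKR than in TRAP (ratio 1.15, 1.12 to 1.17), while Eif2A over TRAP was at 1.01 (0.997 to 1.02). In male-called state-low nuclei iPKR was the lower, at 7700 CPM against 8306 in TRAP (0.927, 0.87 to 0.988). In state-high nuclei the ratios to TRAP had intervals that include 1. The state difference was tested over the 3 libraries with edgeR's quasi-likelihood test, the library being a block. All 9 genes passed at an adjusted p under 0.05, where 14.7% of the 13189 genes tested passed as lower and 15.2% as higher. Their median log2 fold was -1.08, beside -0.01 for all genes tested. The fit leaves 2 residual degrees of freedom and borrows its spread from all genes (222 prior degrees of freedom), so the small p-values rest on that shared spread. An exact sign-flip permutation test over 3 libraries cannot go below p = 0.25 (two-sided).

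**Figure D1:**
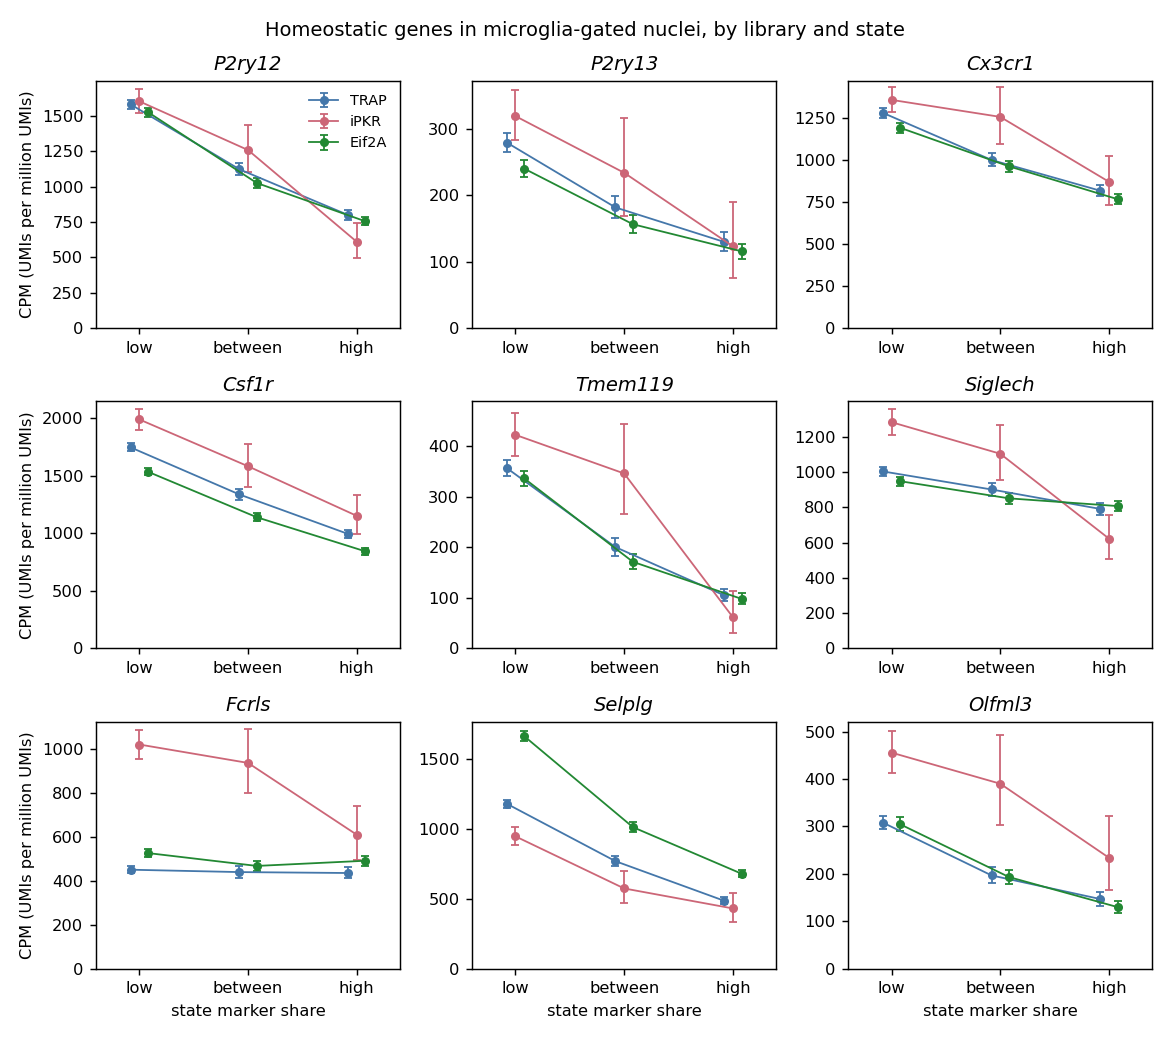
CPM of each gene (y axis, from 0) in state-low, between and state-high microglia-gated nuclei (x axis), with 1 line per library and bars for the 95% counting interval. Most lines fall from low to high; Fcrls stays near 450 in TRAP (450.6 to 436) and starts at 1020 in iPKR.

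P2ry12, the receptor for ADP that guides microglial processes to injury, stood in state-low nuclei at 1582 CPM in TRAP, 1604 in iPKR and 1527 in Eif2A. In state-high nuclei it stood at 799, 609.7 and 755. The fold was 2.63 lower in iPKR (2.15 to 3.26), whose interval does not meet those of TRAP (1.98, 1.89 to 2.08) and Eif2A (2.02, 1.94 to 2.11). The iPKR state-high value rests on 99 UMIs, and this gap depends on the thresholds. With thresholds of 0 and 0.5% P2ry12 went from 1653 to 653.8 CPM in iPKR, 1634 to 706.9 in TRAP and 1576 to 670.2 in Eif2A. State-high iPKR over TRAP was then 0.925 (0.691 to 1.22), against 0.763 (0.617 to 0.933) before. The states did not overlap in any library, and the state-low levels of the 3 libraries lay within 1.05-fold of each other (Eif2A over iPKR 0.952, interval 0.901 to 1.01). The log2 fold was -1.08 ± 0.08 (SE, n = 3 libraries; edgeR adjusted p = 2.19e-29).

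P2ry13, another ADP receptor, went from 279.7 to 129.8 CPM in TRAP, from 319.6 to 123 in iPKR and from 240.4 to 116 in Eif2A. Again every state-high value lay under every state-low value. Its log2 fold of -1.11 ± 0.07 (SE; edgeR adjusted p = 9.29e-34) lay within 1 SE of that of its neighbour P2ry12. Med12l, the gene that spans both on the other strand, had a log2 fold of -0.68 ± 0.08 (edgeR adjusted p = 7.52e-16).

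Cx3cr1, the receptor for the neuronal chemokine fractalkine, went from 1278 to 815 CPM in TRAP, from 1355 to 868 in iPKR and from 1189 to 765 in Eif2A. The fold was nearly equal in the 3 libraries, at 1.57, 1.56 and 1.55 lower. The fitted log2 fold was -0.67 ± 0.08 (SE; edgeR adjusted p = 8.29e-15). Its levels are those of mice with a Cre insertion in an allele of this gene.

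Csf1r (ENSMUSG00000024621, chr18:61100598-61132149), the receptor kinase on which microglial survival depends, overlaps Hmgxb3 on the opposite strand. It went from 1747 to 995 CPM in TRAP, from 1990 (1900 to 2083 by counting) to 1152 in iPKR and from 1535 to 843 in Eif2A. Its state-high level in iPKR was the highest of the 3 and that in Eif2A the lowest, in the same order as in state-low nuclei, though iPKR over TRAP in the high state has an interval that includes 1 (0.993 to 1.34). The log2 fold was -0.86 ± 0.08 (SE; edgeR adjusted p = 4.04e-21). Its ligand gene Csf1 went the other way, from 31.6 to 311 CPM in TRAP, from 53.3 to 308 in iPKR and from 26.7 to 252 in Eif2A (log2 fold 3.18 ± 0.09, edgeR adjusted p = 2.06e-94).

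Tmem119, a membrane protein used to tell microglia from other macrophages, had the largest state difference of the 9. It went from 356 to 105 CPM in TRAP, from 422 to 61.6 in iPKR and from 336 to 97.8 in Eif2A. The iPKR state-high value rests on 10 UMIs, and its fold of 6.85 lower has an interval of 3.68 to 14.4, against 3.4 (3 to 3.86) in TRAP and 3.43 (3.06 to 3.86) in Eif2A. The fitted log2 fold was -1.82 ± 0.08 (SE; edgeR adjusted p = 6.81e-59).

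Selplg, the ligand of P-selectin, went from 1179 to 486 CPM in TRAP, from 946 to 431 in iPKR and from 1662 to 679 in Eif2A. The state-high level of Eif2A thus lay well above that of the other libraries, and the fold was alike, at 2.43, 2.19 and 2.45 lower. The log2 fold was -1.29 ± 0.08 (SE; edgeR adjusted p = 4.64e-38).

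Olfml3, a secreted glycoprotein of the olfactomedin family, went from 308 to 147 CPM in TRAP, from 456 to 234 in iPKR and from 305 to 130 in Eif2A. Its state-high level in iPKR was above that of the other libraries (interval of iPKR over TRAP in state-high nuclei 1.11 to 2.22). The log2 fold was -1.15 ± 0.07 (SE; edgeR adjusted p = 5.23e-36). It was -0.62 in nuclei called male from their RNA and -1.23 in those called female.

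Siglech, a sialic acid-binding lectin, changed less. It went from 1003 to 790.3 CPM in TRAP (1.27-fold lower, 1.21 to 1.33), from 1282 to 622 in iPKR (2.06-fold, 1.68 to 2.55) and from 947 to 807 in Eif2A (1.17-fold, 1.12 to 1.23). The iPKR interval does not meet those of the other libraries. The log2 fold was -0.42 ± 0.08 (SE; edgeR adjusted p = 1.16e-06) and -0.29 without the iPKR library. With library not a term in the fit, adjusted p was 0.107 (edgeR).

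Fcrls, an Fc receptor-like protein and a microglial surface marker of mice, had the smallest state difference. It went from 450.6 to 436 CPM in TRAP (1.03-fold lower, 0.965 to 1.11), from 1020 to 609.7 in iPKR (1.67-fold, 1.36 to 2.08) and from 526 to 491 in Eif2A (1.07-fold, 1.01 to 1.14). In TRAP the interval spans no change, and the iPKR state-high value rests on 99 UMIs. The log2 fold of -0.20 ± 0.07 (SE; edgeR adjusted p = 0.0279) missed the threshold in 8 of 15 alternative fits. Without the iPKR library the log2 fold was -0.08 and the adjusted p 0.293, and without Eif2A they were -0.33 and 0.085. DESeq2 gave an adjusted p of 0.296, and edgeR with library not a term 0.553.

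**Figure D2:**
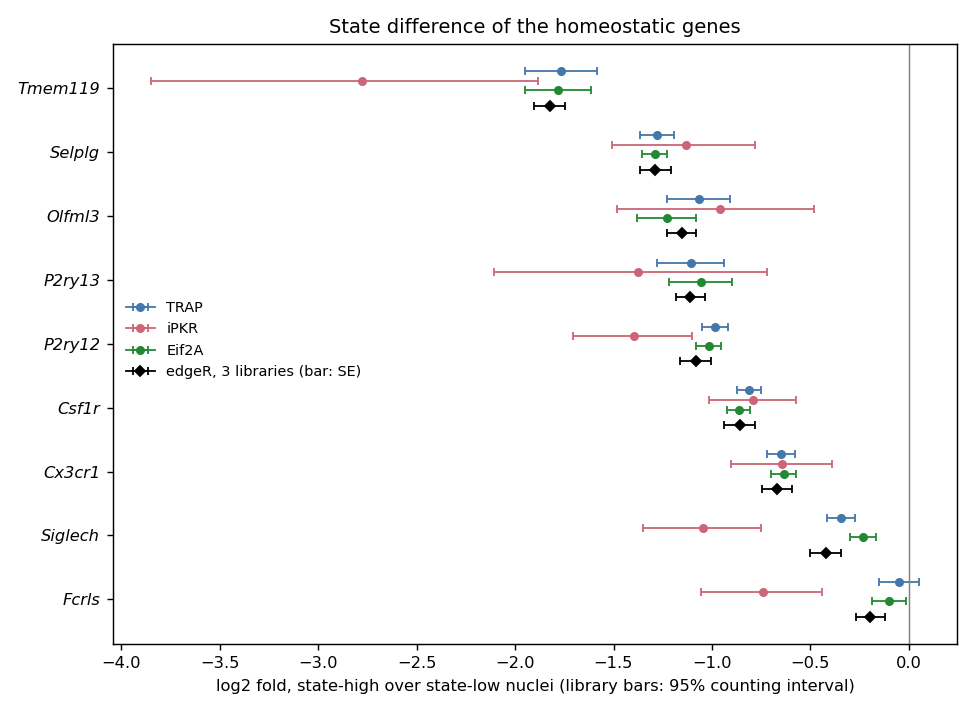
Log2 fold of state-high over state-low nuclei (x axis) for each gene (y axis), per library with 95% counting intervals and as fitted by edgeR over the 3 libraries with an SE derived from its F statistic. Tmem119 lies farthest from 0 (-1.82) and Fcrls nearest (-0.20). The iPKR points of P2ry12, Siglech and Fcrls lie apart from the other libraries at these state thresholds, that of P2ry12 with 99 state-high UMIs.

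Markers of other cells also differed between the states. The border macrophage list (Mrc1, F13a1, Cbr2, Pf4, Lyve1, Cd163) summed to 189, 10.9 and 166 CPM in state-low nuclei of TRAP, iPKR and Eif2A and to 7.09, 18.5 and 13.9 in state-high nuclei. In iPKR 4 of its 6 genes were at 0 in each state. The B cell list (Cd79a, Cd79b, Ms4a1, Pax5, Bank1) summed to 263, 462 and 235 against 19.4, 37.0 and 17.8 CPM, and Pax5 was at 0 in state-low nuclei of all 3 libraries. The T or NK cell list stood at 62.5, 72.9 and 66.9 against 8.95, 6.16 and 7.91 CPM, and the monocyte or neutrophil list had 4 or 5 of 6 genes at 0 in each. Lists of other brain cells moved too. The vascular list summed to 61.8, 54.4 and 68.5 CPM in state-low and 95.5, 129 and 103 in state-high nuclei, with Rgs5 or Cldn5 at 0 in each. The oligodendrocyte precursor list went from 29.5, 54.4 and 11.0 to 45.5, 136 and 22.9 CPM, and the astrocyte list from 277, 296 and 289 to 177, 216 and 181. The oligodendrocyte list went from 152, 82.6 and 98.9 to 156, 98.5 and 103 CPM. With nuclei of other immune markers left out, all 9 genes still passed the test, from -1.84 (Tmem119) to -0.19 (Fcrls) on the log2 scale. This kept 7529 of 7605 gated nuclei in TRAP, 1051 of 1059 in iPKR and 6553 of 6596 in Eif2A. Of the 13157 genes tested in that fit, 14.8% passed as lower and 15.4% as higher. All 9 also passed with nuclei high in UMIs or in these other brain markers left out. This kept 7586 of 7605 gated nuclei in TRAP, 1059 of 1059 in iPKR and 6530 of 6596 in Eif2A. Here 14.6% of 12998 genes passed as lower and 15.3% as higher. Neither filter left the fit much room to change.

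The genes moved in steps along the state marker share. In TRAP the sum of the 9 stood at 8436 CPM in nuclei with none of the 5 state genes, 7668 above 0 to 0.1%, 6147 from 0.1 to 0.3%, 4887 from 0.3 to 0.6%, 4496 from 0.6 to 1% and 3606 above 1%. In Eif2A it went over the same bins as 8574, 7893, 5977, 4858, 4195 and 4124. The iPKR library held 5 bins of 20 nuclei or more, at 9496, 8990, 7679, 4937 and 3905. Tmem119 in TRAP went from 379 CPM in the first bin to 23.2 (6.32 to 59.4) in the last, whose 120 nuclei gave 4 UMIs. Fcrls in TRAP lay between 406 and 472 CPM in all 6 bins, with no steady course. Across the upper threshold, TRAP nuclei at 0.25 to under 0.3% stood at 5334 CPM for the sum and those at 0.3 to under 0.35% at 5217. Just below and above the lower threshold the sums were 7644 and 6788.

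At the level of single nuclei, each nucleus was thinned to 1000 UMIs and gated again, so that depth was equal. Nuclei under 1000 UMIs were left out, 847 (TRAP), 208 (iPKR) and 145 (Eif2A) of the state-low and 354, 50 and 93 of the state-high nuclei. Fewer UMIs also moved nuclei between states, which left 3682, 602 and 3616 state-low and 1712, 106 and 1917 state-high nuclei. Tmem119 was then detected in 27.4%, 33.2% and 24.5% of state-low nuclei (TRAP, iPKR, Eif2A) and in 10.6%, 8.49% and 10.1% of state-high nuclei. The unthinned shares were 36.4%, 36.1% and 42.2% against 13.2%, 7.30% and 17.3%. P2ry12 was detected in 72.9%, 74.6% and 71.4% of thinned state-low nuclei and in 50.6%, 42.5% and 51.1% of state-high nuclei (unthinned 80.7%, 77.8% and 85.7% against 61.0%, 43.1% and 68.1%). Fcrls was detected in 33.6% and 33.0% of thinned TRAP nuclei of the low and high state and in 37.0% and 37.5% of those of Eif2A, against 60.1% and 48.1% in iPKR. The median nucleus had 5, 5 and 4 of the 9 genes with a UMI in the low state and 3 in the high state of each library. Nuclei with at most 1 of the 9 genes made up 3.10%, 1.66% and 2.63% of the low state and 11.6%, 7.55% and 11.2% of the high state.

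In neuron-gated nuclei, which should lack these genes, thinned detection was far lower but not 0. Tmem119 was detected in 1.63%, 0.258% and 1.32% of them and Fcrls in 1.51%, 0.282% and 1.75%, while P2ry12 was detected in 13.4%, 9.70% and 8.33%. These nuclei were deeper before thinning, at a median of 6014.5, 5944 and 10325.5 UMIs, and without thinning P2ry12 had a UMI in 51.4%, 42.8% and 52.6% of them. P2ry12 also differed from the other genes in its level. In iPKR its neuron-gated CPM was 8.03% (7.57 to 8.51) of its microglia-gated CPM, P2ry13 was at 1.73% (1.40 to 2.11), Cx3cr1 at 1.83% (1.66 to 2.00), and the other 6 genes were at 0.419% to 0.668%. In TRAP P2ry12 was at 12.7% (12.1 to 13.3) and the other 8 genes at 4.42% to 6.10%, and in Eif2A at 7.81% (7.1 to 8.57) and 2.94% to 5.20%. Med12l, which spans P2ry12 on the other strand, stood at 237, 218 and 194 CPM in neuron-gated nuclei, and its part in the P2ry12 value was not tested.

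**Figure D3:**
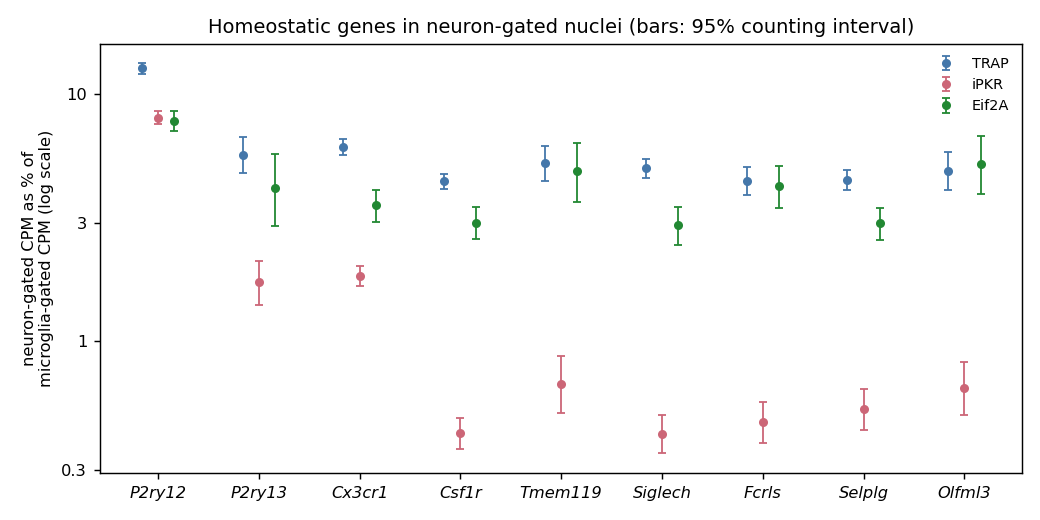
CPM of each gene in neuron-gated nuclei as a percent of its CPM in microglia-gated nuclei (y axis, log scale), per library with 95% counting intervals. P2ry12 lies highest in every library (12.7%, 8.03% and 7.81%), and in iPKR the 6 genes other than P2ry12, P2ry13 and Cx3cr1 lie between 0.419% and 0.668%.

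A small class of nuclei gated on border macrophage markers held 129 nuclei in TRAP and 110 in Eif2A; its marker threshold was set after the data were seen. There Csf1r stood at 1298 and 1337 CPM and Fcrls at 616 and 756, beside 1468 and 1236 (Csf1r) and 444 and 501 (Fcrls) in microglia-gated nuclei. Tmem119 stood at 18.1 (3.74 to 52.9) and 30.9 (11.3 to 67.1) CPM, beside 258 and 225. Selplg stood at 151 and 257, and Siglech at 169 and 329, each far under the microglia-gated level. P2ry12, P2ry13, Cx3cr1 and Olfml3 were lower there as well.

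Between libraries there is 1 sample per group and no test, so ratios of CPM are given with exact 95% counting intervals, which do not cover differences between mice. The first question is how the genes stood where PKR could be induced, iPKR against TRAP, mice that had the same treatments. In all gated nuclei 5 of the 9 genes were 25% or more higher in iPKR, where 12% of 4274 genes at 50 CPM or more were, and 0 were lower by the same factor (20% or more), where 10.8% were. In state-low nuclei 3 were higher (11.6% of all genes) and 0 lower (9.73%). These counts differed by the sex called from the RNA: male-called state-low nuclei gave 2 higher and 4 lower (29.3% and 25.1% of all genes), and female-called ones 6 higher and 0 lower (18.8% and 16.9%). The share of state-high nuclei was 12.9% in iPKR and 24.0% in TRAP, so the states were not mixed alike in the counts over all nuclei.

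Fcrls differed most. In state-low nuclei it stood at 1020 CPM in iPKR and 450.6 in TRAP, a ratio of 2.26 (2.10 to 2.44). Olfml3 stood at 456 and 308, a ratio of 1.48 (1.33 to 1.65), and Siglech at 1282 and 1003, a ratio of 1.28 (1.20 to 1.36). Selplg was the one gene under 1, at 0.802 (0.747 to 0.861). P2ry12 was at 1.01 (0.959 to 1.07) and Cx3cr1 at 1.06 (0.997 to 1.13), with intervals that include 1.

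The mice of a library could be told apart by sex, since each pool held 1 of each. A Y-linked UMI with no more than 1 Xist UMI made a nucleus male-called; 2 or more Xist UMIs without any Y-linked one made it female-called. For state-low nuclei, TRAP had 747 male- and 1692 female-called ones, iPKR 104 and 258, and Eif2A 1030 and 1313. Calls depend on depth, and 2953, 566 and 1406 gated nuclei had none. State-high nuclei made up 15.5%, 14.1% and 14.4% of male-called and 28.4%, 11.4% and 34.6% of female-called gated nuclei. Fcrls was higher in iPKR in both sexes, at 1.70 (1.37 to 2.11) in male- and 2.74 (2.43 to 3.07) in female-called nuclei. Siglech was higher in both as well, at 1.26 (1.06 to 1.5) and 1.35 (1.22 to 1.49), and Selplg lower in both, at 0.561 (0.452 to 0.688) and 0.893 (0.796 to 0.999). Olfml3 was at 1.24 (0.935 to 1.61) and 1.95 (1.63 to 2.31).

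Tmem119 and Cx3cr1 lay on opposite sides of 1 in the nuclei of either sex. Tmem119 in state-low nuclei stood at 276 CPM in male-called nuclei of iPKR and 394 in those of TRAP, a ratio of 0.701 (0.491 to 0.975), but at 560.1 and 338 in female-called nuclei, a ratio of 1.66 (1.41 to 1.95). Cx3cr1 was at 0.797 (0.668 to 0.944) in male- and 1.15 (1.04 to 1.27) in female-called nuclei. P2ry13 was at 0.797 (0.523 to 1.17) in male- and 1.47 (1.21 to 1.78) in female-called nuclei, the former with an interval that includes 1. With 1 mouse of each sex per library, sex and mouse cannot be told apart, and this difference was not tested.

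**Figure D4:**
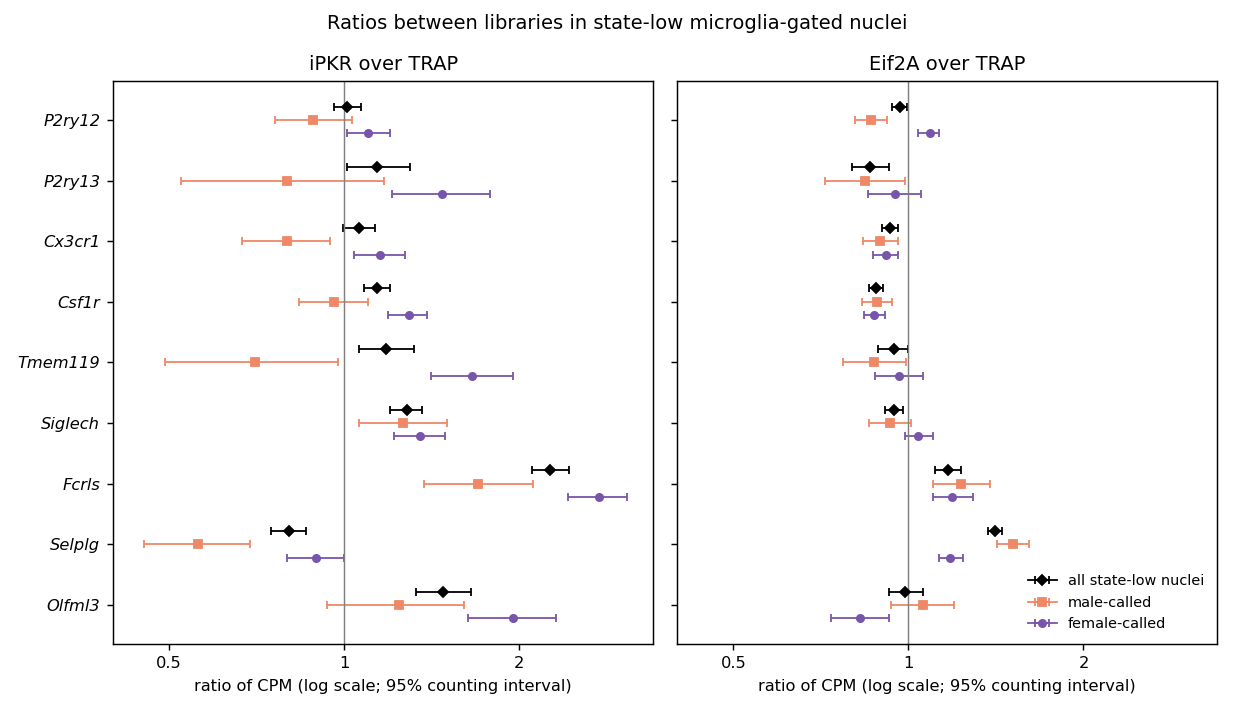
Ratio of CPM in state-low nuclei (x axis, log scale) of iPKR over TRAP and of Eif2A over TRAP for each gene (y axis), over all state-low nuclei and in male- and female-called nuclei, with 95% counting intervals. Fcrls lies right of 1 in both sexes for iPKR (1.70 and 2.74), whereas Tmem119 lies on either side (0.701 and 1.66).

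In the Eif2A library the target of PKR was altered and no VEGF or ASV was given. In all gated nuclei 1 of the 9 genes was 25% or more higher, where 16.3% of all genes were, and 0 were lower, where 10.4% were. In state-low nuclei the same counts were 1 (17.2%) and 0 (11.1%). Counting intervals were clear of 1 for 7 of the 9 genes in state-low nuclei, and for 7 in iPKR over TRAP. The share over all genes was not counted, so these counts are not read further. State-low nuclei held 5723929 UMIs in Eif2A and 919761 in iPKR, so smaller ratios are clear of 1 in Eif2A. The gene that was 25% or more higher was Selplg, at 1662 CPM in Eif2A and 1179 in TRAP, a ratio of 1.41 (1.37 to 1.45). By sex, its ratio was 1.51 (1.42 to 1.61) in male- and 1.18 (1.13 to 1.24) in female-called nuclei, so the latter stayed under 25%. Fcrls was at 1.17 (1.11 to 1.23), Csf1r at 0.879 (0.854 to 0.904), P2ry13 at 0.860 (0.799 to 0.924) and the other 5 between 0.930 and 0.988. P2ry12 was at 0.862 (0.810 to 0.917) in male- and 1.09 (1.04 to 1.13) in female-called nuclei.

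Set against iPKR, Eif2A had 1 gene higher and 6 lower in state-low nuclei, where 23.8% and 20% of all genes were. In all gated nuclei 1 was higher and 7 lower (24.1% and 20.4% of all genes). Fcrls was 1.94-fold lower in state-low nuclei (1.80 to 2.09) and Olfml3 was at 0.668 (0.6 to 0.745), while Selplg was higher, at 1.76 (1.64 to 1.89). The 3 comparisons share libraries and are not independent. In state-high nuclei iPKR had 137 nuclei, and background shares of 28.4% higher and 21.1% lower against TRAP; of the 9 genes, 2 were higher and 3 lower. Eif2A had 1 gene higher than TRAP and 0 lower there (17.4% and 11.5% of all genes), and Selplg was again the gene.

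Within a library, Olfml3 differed between male- and female-called nuclei. In state-high nuclei it stood at 266 CPM in male- and 108 in female-called nuclei of TRAP, a ratio of 2.47 (1.85 to 3.26), and at 252 and 102 in Eif2A, a ratio of 2.47 (1.97 to 3.08). In iPKR the ratio was 2.59, with 9 and 6 UMIs and an interval of 0.822 to 8.83. In state-low nuclei the ratios were 1.43 (1.26 to 1.62) in TRAP, 1.84 (1.64 to 2.05) in Eif2A and 0.908 (0.670 to 1.22) in iPKR. Siglech was lower in male-called nuclei in 5 of the 6 sets, at 0.744 to 0.844, and at 1.09 (0.555 to 2.07) in state-high nuclei of iPKR. In state-low nuclei its interval lay under 1 in all 3 libraries, and none of the other 8 genes had an interval clear of 1 on the same side in all 3. Each sex is 1 mouse per library, so sex and mouse cannot be told apart within a library.

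**Figure D5:**
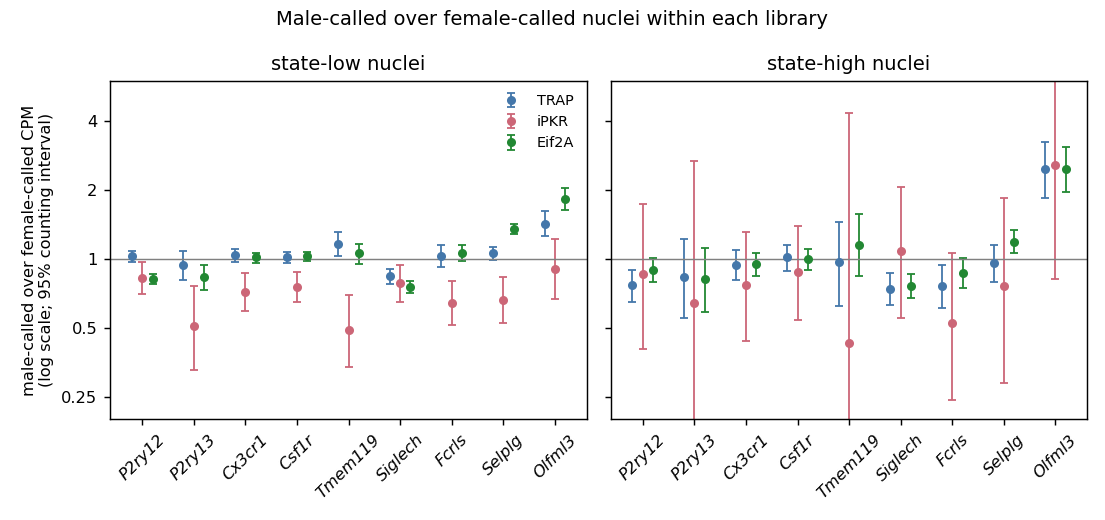
Ratio of CPM in male-called over female-called nuclei (y axis, log scale) of each gene, per library, in state-low and state-high nuclei, with 95% counting intervals, some of which run past the axis in iPKR. Olfml3 in state-high nuclei lies at 2.47, 2.59 and 2.47.

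Further genes of the same pathways were given by a list of 42 homeostatic, purinergic, CSF1R, CX3CR1 and TGF-beta genes. Of 40 tested, 28 were lower in state-high nuclei, 5 higher and 7 not called by edgeR, beside 14.7% lower and 15.2% higher over all genes, with a median log2 fold of -0.40 (-0.01 over all genes). The 3 with the largest fall were Crybb1, a crystallin used as a microglial marker (-3.51 ± 0.20), Maf, a transcription factor of macrophages (-1.62 ± 0.08), and Adora3, an adenosine receptor (-1.31 ± 0.11). The 3 with the largest rise were Csf1 (given above), Tgfbr2, a TGF-beta receptor subunit (0.79 ± 0.07), and P2rx4, an ATP-gated channel (0.69 ± 0.07). The edgeR adjusted p was 9.67e-42 for Crybb1, 4.3e-54 for Maf, 9.94e-23 for Adora3, 1.37e-20 for Tgfbr2 and 1.08e-18 for P2rx4. Crybb1 went from 51.9 to 4.10 CPM in TRAP, from 102 to 12.3 in iPKR and from 49.3 to 4.52 in Eif2A. Of 9 further disease-associated genes tested, 9 were higher (15.2% of all genes were), with a median log2 fold of 2.23. Csf1 is in both lists and counted in each.

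Over 9 sums (3 libraries with low, between and high nuclei), the genes most like the mean of the 9 were Frmd4b (Pearson r = 0.995), Frmd4a (0.993), Mgat4a (0.991), Eef2k (0.991) and Garnl3 (0.990), out of 4080 ranked. These sums share libraries and the same ordering by state, so the values describe likeness in these data. Among the 9 themselves, the correlation of each gene with the mean of the other 8 was 0.880 to 0.985 for all but Fcrls (0.489) and Selplg (0.539). Fcrls differed by its level in iPKR and Selplg by its order of the libraries, with Eif2A highest.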

How the data were processed

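Nuclear RNA was measured in 3 libraries of sorted cortical nuclei. Per the submitters' processing notes, Cell Ranger 7.1.0 and mm10 were used, and the deposited values are raw UMI counts per gene and nucleus, with no scaling. Whether intron reads were counted is not given in the sources used here. The members, gates and gene lists were chosen with earlier results of these data known.

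UMIs were summed per library and state and divided by the total of the same nuclei (CPM). The state test used edgeR 4.0.16 in R 4.3.3 (TMM scaling, filterByExpr, library as block, Benjamini-Hochberg adjustment over all genes), was tested on simulated data, and had DESeq2 1.42.0 as an alternative. The edgeR test gives no SE, so each SE is the absolute log2 fold divided by the square root of the F statistic. Nuclei are not replicates. With library as a block, differences in level between the 3 libraries, each a pool of 2 mice, are taken out. The p-values rest on how the state difference varies between libraries, combined with a spread shared over all genes. They do not measure the spread between mice. Between libraries no test was made. Ratios carry exact conditional binomial intervals, levels exact Poisson and shares exact Clopper-Pearson intervals, all at 95% and for counting error only. A count of 0 in gated nuclei allows up to 3 UMIs, or 0.274 (TRAP), 2.38 (iPKR) and 0.237 (Eif2A) CPM. Doublets were not called. An alternative left out nuclei with markers of other cells or in the top 5% of UMIs over all nuclei of a library, neurons included. Named genes were the 9 members, 3 list genes in each direction and the 5 most alike by Pearson correlation of log2(CPM + 1), at 50 CPM or more on average. Other alternatives changed the gates, scaling, depth, filter and libraries used.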

Additional observations from a re-analysis of the deposited data

Results flagged for a closer look

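In 3 of 54 comparisons with TRAP (over all, state-low and state-high nuclei), all 3 of them in state-low nuclei, male- and female-called nuclei went opposite ways with both counting intervals clear of 1. The share of all genes that meet this rule was not counted, so the number flagged is not read further. For iPKR over TRAP, Tmem119 was at 0.701 (0.491 to 0.975) in male- and 1.66 (1.41 to 1.95) in female-called nuclei. Cx3cr1 was at 0.797 (0.668 to 0.944) and 1.15 (1.04 to 1.27). For Eif2A over TRAP, P2ry12 was at 0.862 (0.810 to 0.917) and 1.09 (1.04 to 1.13). These differences were not tested: each sex is 1 mouse per library, and the iPKR values rest on 104 male- and 258 female-called nuclei.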

How the results depend on the processing

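The direction of the fitted state difference held for all 9 genes in the 15 alternative fits. Within TRAP alone, Fcrls stood at 460.7 CPM in state-low and 461.9 in state-high nuclei with thresholds of 0 and 0.5%. In female-called TRAP nuclei it stood at 433.6 and 462.5 (high over low 1.07, 0.971 to 1.17). Of the fitted values, 126 of 135 kept their side of the adjusted p threshold. The exceptions were Fcrls in 8 fits and Siglech in the fit with no replicate block, in which 7 genes passed. Of the 12491 genes tested in that fit, 466 passed as lower (3.73%) and 543 as higher (4.35%). Over all genes, DESeq2 gave 799 lower and 832 higher, a microglial marker share of 1% or more 665 and 627, and male-called nuclei 655 and 606. Female-called nuclei gave 1245 higher. Leaving out 1 library gave 814 (without Eif2A; 967 without TRAP) to 2062 (without iPKR) lower and 918 to 2233 higher. Which samples or genes caused these counts was not tested.

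Of the library ratios, 107 values moved beyond the counting interval and 400 did not. Among ratios of 25% or more, 6 reversed, all in male-called nuclei: iPKR over TRAP in all nuclei for P2ry13 (0.982) and Tmem119 (0.827), and Eif2A over iPKR for Cx3cr1 (1.06, all nuclei), P2ry13 (1.06, state-low) and Tmem119 (1.1, all nuclei, and 1.247, state-low). Each of these 6 male-called ratios has a counting interval that includes 1. Smaller ratios changed side of 1 in 17 cases, 10 of them in male-called nuclei, 3 in female-called nuclei and 4 at a microglial share of 1%. In 2 of these both intervals were clear of 1: Tmem119 for iPKR over TRAP in state-low nuclei (1.18, and 0.701 in male-called nuclei) and P2ry12 for Eif2A over TRAP (0.966, and 1.09 in female-called nuclei). The cause was not tested. For iPKR over TRAP, male-called nuclei gave 3 genes higher and 1 lower over all nuclei (27.2% and 24.1% of all genes) and 2 higher and 4 lower in the low state (29.3% and 25.1%), and female-called nuclei 6 higher in the low state (18.8%). State thresholds of 0 and 0.5%, other immune cells left out, TMM factors and DESeq2 size factors each gave 1 gene lower in the low state (9.85% to 11.3% of all genes). For Eif2A over TRAP, female-called nuclei gave 0 genes higher in all and in state-low nuclei (17.8% and 19.6% of all genes) and 1 lower in all (12.6%), and the 1% microglial share gave 1 lower in the low state (14.5%). For Eif2A over iPKR, female-called nuclei gave 0 higher over all nuclei (28.2%), and male-called nuclei gave 2 lower in all and 2 in state-low nuclei (29.3% and 30.6%). With 1 library per group, counting intervals do not cover differences between mice. Thinning moved 81 detection shares and left 27 within their intervals. The 137 state-high nuclei of iPKR limit what can be seen there.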

Other observations

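The bins of the state marker share showed Tmem119 at 0 UMIs in the 36 iPKR nuclei from 0.6 to 1%, with an exact upper bound of 85.8 CPM. Nuclei just outside the microglial gate, with 0.4 to under 0.5% of UMIs from its genes, had 6276, 8632 and 6554 CPM of the 9 genes in TRAP, iPKR and Eif2A, and those just inside, at 0.5 to under 0.6%, had 6533, 8676 and 6375.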
